A study of Mus musculus with 18 samples.

Results

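Chaperones and heat shock proteins were followed through 18 single-cell RNA libraries of mouse myeloid cells from yolk sac and brain. The genes were taken by name. A gene row was included when 1 of its names began with Hspa, Hspb, Hspd, Hspe, Hsph, Hsp90, Dnaja, Dnajb, Dnajc, Cct and a digit, or Pfdn, or was Tcp1. This gave 88 of the 27297 rows of the table, 79 with a single name and 9 that join several names. The rule also took 3 rows whose proteins are not chaperones of these families (Hspb11, Hspbap1 and Cct8l1), which were kept apart. All mice carried a green fluorescent protein reporter in Cx3cr1 on the C57BL/6J background (strain CX3CR1-GFP+ C57BL/6J), and none was treated. Yolk sac and brain at embryonic day 12.5 (E12.5) were sorted as CD45+CD11B+CX3CR1-GFP+, and gave 4 libraries with 671 cells and 4 libraries with 718 cells. Brain at embryonic day 18.5 (E18.5, 6 libraries, 992 cells) and adult brain (4 libraries, 631 cells, age not given) were sorted as CD45intCD11BintCX3CR1-GFP+, so gate and age between E12.5 and E18.5 cannot be told apart.

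Chaperones bind unfolded proteins and help them reach or keep their shape. HSP70 and HSP90 proteins work in cycles of ATP use, and J-domain proteins, named Dnaj, deliver clients to HSP70. The chaperonin CCT, a ring of related subunits, folds actin and tubulin, which prefoldin hands to it, and the HSP60 ring built from Hspd1 with its lid Hspe1 folds proteins in mitochondria. In the endoplasmic reticulum the HSP70 protein BiP, encoded by Hspa5, and the HSP90 protein GRP94, encoded by Hsp90b1, fold secreted and membrane proteins. Heat shock factor switches on the inducible members under heat or other protein damage, and a separate unfolded protein response switches on the members of the endoplasmic reticulum.

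The table counts unique molecular identifiers (UMIs), so that each count stands for 1 captured transcript end. Yolk sac libraries held 269698 to 309084 UMIs each, those of E12.5 brain 228467 to 534219, those of E18.5 brain 143876 to 217647 and the adult ones 74562 to 99494. Levels are given as CPM, the count of a row scaled to a library total of 1000000 UMIs, as mean ± SD over libraries. A floor of 3 UMIs over a group equals 2.67, 2.01, 2.82 and 8.30 CPM in the same order, a limit of counting error only, so low members were measured least well in adult brain. In the well annotation each of the 9 plates holds 2 libraries, and libraries of 1 age share 1 subject number. The p-values therefore measure the spread between libraries, which may be technical. The 3 sequencing batches are also uneven: replicates 1 and 2 of E12.5 brain make up the first, replicates 3 and 4 of E12.5 brain with replicates 1 and 2 of yolk sac the second, and all other libraries the third. As a check of the labels, all 9 homeostatic microglia markers were detected in every group and were lower in yolk sac than in E12.5 brain, while 4 T and B cell markers had 0 UMIs in all groups.

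Of the 88 rows, 48 passed the filter on low counts and were tested among 4883 rows by edgeR's quasi-likelihood test, at a Benjamini-Hochberg adjusted p under 0.05. The other 40 held at most 120 UMIs each over all libraries, and 6 of them held none. In 25 of the 48 tested rows, 52.1%, at least 1 of 4 comparisons passed, as it did in 52.7% of all 4883 rows, a share near that of the members. All rows together took 1.18% to 1.34% of the UMIs of each yolk sac library. At E12.5 their share of a brain library was 1.24% to 1.38%, at E18.5 0.974% to 1.16%, and in adults 0.662% to 0.704%. The ranges of the E12.5 groups overlapped, and the adult libraries lay below all others.

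The families did not share 1 course. The summed level of the cytosolic HSP70 and HSP90 rows was 6079 ± 365 CPM in yolk sac, 5766 ± 394 in E12.5 brain, 4141 ± 179 in E18.5 brain and 1748 ± 108 in adult brain (SD, n = 4, 4, 6 and 4). In the same order, the prefoldin sum was 1024, 1014, 590.2 and 384 CPM, and the mitochondrial sum was 965, 1167, 677 and 385 CPM. The chaperonin CCT sum was 1386, 1922, 1265 and 798 CPM. The means of these 4 sums were lowest in adult brain, although for CCT adult replicate 4, at 899 CPM, lay above replicate 6 of E18.5 brain, at 885 CPM. By contrast, the endoplasmic reticulum sum was 1592 ± 448, 1725 ± 746, 2754 ± 506 and 2054 ± 151 CPM, with its highest mean at E18.5. Its E12.5 brain libraries were at 2446, 2291, 1118 and 1046 CPM, so that those of the first-batch plate lay within the E18.5 range of 2124 to 3426 CPM. The sum of the 29 remaining J-domain rows stayed between 1025 CPM in yolk sac and 1188 CPM at E18.5, and the 9 stress-inducible rows summed to 251, 261, 262 and 207 CPM. The most abundant rows weigh most in these sums: Hsp90ab1 and Hspa8 in the cytosolic one and Hsp90b1 in that of the endoplasmic reticulum. Hsp90b1 itself split by plate within E12.5 and passed in no comparison of the fit of all libraries. The sums are descriptions, and the tests below are of single rows.

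**Figure D1:**
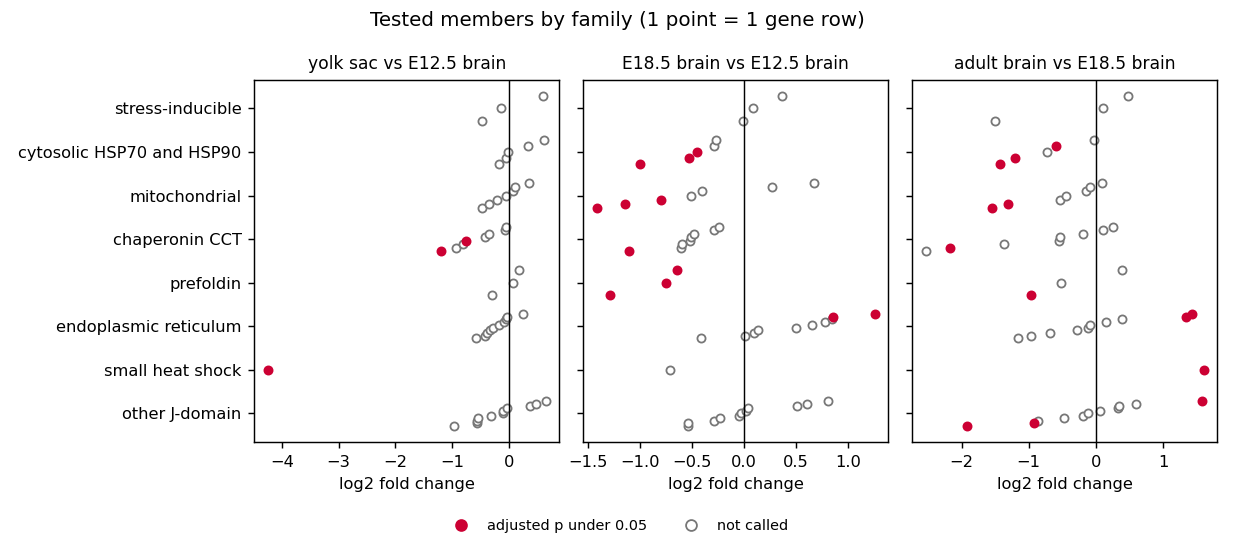
Log2 fold changes (horizontal axes) of the 48 tested rows by family in 3 comparisons, each from 1 edgeR fit of all 18 libraries; filled points passed an adjusted p under 0.05 and each panel has its own scale. The prefoldin and cytosolic points lie left of 0 from E12.5 to E18.5, 9 of 10 endoplasmic reticulum points lie right of it, and Hspb3 stands alone at −4.24 in the yolk sac panel. From E12.5 to E18.5, 2524 of all 4883 tested rows lay left of 0 and 2359 right of it.

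Genes of acute stress were examined first, since cell isolation itself can switch them on. The strictly inducible HSP70 genes were at or near 0 in every group. Hspa1a had 2, 1, 2 and 0 UMIs in yolk sac, E12.5 brain, E18.5 brain and adult brain, and Hspa1b had 4, 4, 0 and 0. Hsph1, the HSP110 protein that recharges HSP70, had 34, 46, 17 and 2 UMIs. The small heat shock protein Hspb1 had 20 UMIs in yolk sac, in 5 cells with up to 9 in 1 cell, 20 in E12.5 brain, in 20 cells, 0 in E18.5 brain and 2 in adult brain. In E12.5 brain replicate 1 held nearly all of it, with 38.4, 0, 0 and 4.38 CPM in the 4 libraries. None of these 4 passed the filter on low counts.

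Dnajb1, the inducible J-domain partner of HSP70, passed the filter on low counts. Its level was 85.1, 50.8, 35.6 and 85.3 CPM in the yolk sac libraries, 82.9, 48.7, 89.98 and 70.03 CPM in those of E12.5 brain and 111, 65.9, 156 and 80.5 CPM in those of adult brain, and at E18.5 it ran from 51.6 to 122 CPM with a median of 66.3. The 4 groups overlapped. The log2 fold change was −0.13 (SE 0.33, edgeR adjusted p = 0.873) for yolk sac against E12.5 brain, 0.08 (SE 0.31, edgeR adjusted p = 0.871) for E18.5 against E12.5 brain and 0.48 (SE 0.36, edgeR adjusted p = 0.367) for adult against E18.5 brain, so no comparison passed. Dnaja1, a J-domain partner of HSP70 read in 1 row with Mir207, gave 57.1, 39.2, 49.3 and 53.3 CPM and also passed in none.

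The inducible HSP90 isoform, Hsp90aa1, split by plate within E12.5. It was 22.2, 18.1, 178 and 92.7 CPM in yolk sac and 182, 176, 25.7 and 39.4 CPM in E12.5 brain, where the second-batch libraries were the low ones in each tissue. At E18.5 it ran from 38.7 to 174 CPM with a median of 127, and in adult brain it was 50.3, 10.99, 51.95 and 40.2 CPM. Adult against E18.5 brain gave a log2 change of −1.50 (SE 0.92, edgeR adjusted p = 0.288) in the fit of all libraries and −1.49 (edgeR adjusted p = 0.0106) in a fit of those groups alone, both of which lie in the third batch. It was also called with sequencing batch as a covariate and with libraries thinned to 1 total, and in no other alternative. At an unadjusted p under 0.05, edgeR called 0 of the 3 tested inducible rows in every comparison, and DESeq2 called 0.

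Immediate early genes, transcription factors and regulators that cell isolation can also induce, moved apart from these. The summed level of 20 of them was 1016 ± 47.4 CPM in yolk sac, 689 ± 83.8 in E12.5 brain, 5513 ± 531 in E18.5 brain and 10308 ± 1309 in adult brain, and 13 of 15 tested ones rose from E12.5 to E18.5 brain, where 11.1% of all tested rows were called higher. Their part in any result of the chaperones was not tested.

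**Figure D2:**
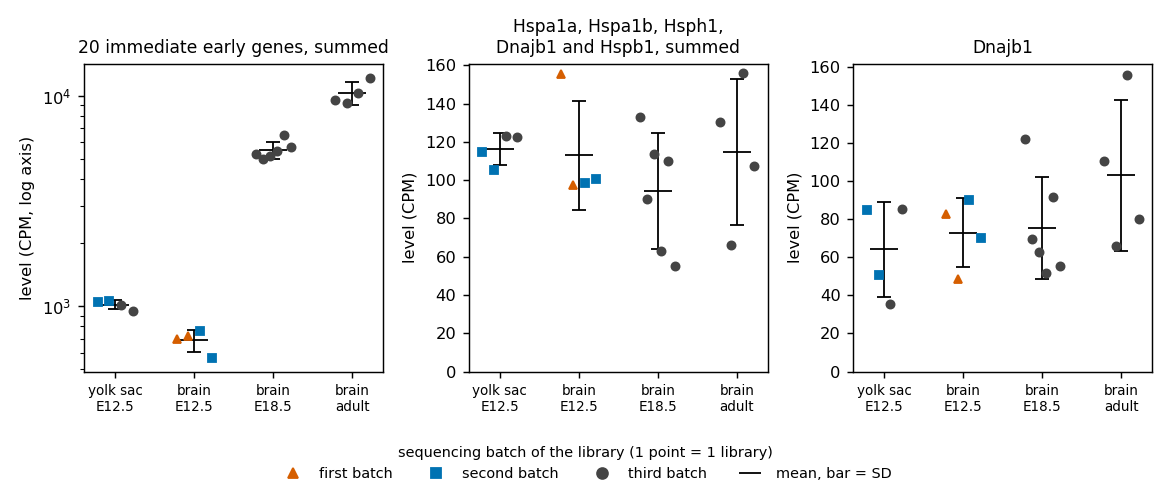
Level in CPM (vertical axes, the left one logarithmic) of 20 immediate early genes summed, of 5 inducible chaperone genes summed and of Dnajb1 in each library; points are libraries marked by sequencing batch, with mean and SD. The immediate early sums of E18.5 and adult brain lie above all E12.5 libraries, whereas all 4 groups overlap for the chaperones.

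Shares of cells with a UMI of an inducible gene were compared as well. After each cell was thinned to 300 UMIs, a Dnajb1 UMI was seen in 1.78% ± 0.799 of yolk sac cells, 3.11% ± 1.61 of E12.5 brain cells, 2.32% ± 0.893 of E18.5 brain cells and 3.43% ± 1.56 of adult cells (SD over 4, 4, 6 and 4 libraries). Without thinning the shares were 8.60%, 11.3%, 7.25% and 5.19%, at median depths per library of 1412 to 1708, 1206 to 2513, 758.5 to 1283 and 459 to 547 UMIs. In 20 two-sided exact permutation tests over libraries, of 5 inducible genes in 4 comparisons, every adjusted p was 1. These tests could not show a change of 1 gene: the smallest p is 0.0286 for 4 against 4 libraries and 0.00952 for 6 against 4, which alone adjusts over 20 tests to 0.571 and 0.19, and Hspa1b had no thinned UMI in any group. None of 36 empty wells held a UMI of an inducible gene.

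Hsp90ab1 and Hspa8, the most abundant cytosolic HSP90 and HSP70 rows, were called lower at both steps of age in brain. For Hspa8 the call from E12.5 to E18.5 was lost in 12 of 21 alternatives. In E18.5 against E12.5 brain, 10 of the 48 tested members fell and 2 rose, where 13.4% of all tested rows were called lower and 11.1% higher. With sequencing batch as a covariate 3 were called lower and 0 higher, and counts summed per plate gave 4 lower and 1 higher. DESeq2 called 6 lower and 1 higher. In adult against E18.5 brain 9 fell and 4 rose, where 11.2% of all rows were called lower and 10.3% higher. The 4 higher calls went to 0 with libraries thinned to 1 total and to 1 with counts summed per plate, while 6 to 13 members were called lower over the alternatives. The median log2 fold change of the members was −0.28 and −0.24, against −0.03 over all tested rows in both comparisons. Hsp90ab1, the constitutive HSP90 of the cytosol, was 2834, 3041, 2821 and 3144 CPM in yolk sac, 3329.8, 3431, 2982 and 2884 CPM in E12.5 brain and 573, 956, 748 and 912 CPM in adult brain, and at E18.5 it ran from 1853 to 2530.0 CPM with a median of 2189. The 3 brain ages did not overlap. The log2 fold change was −0.54 (SE 0.12, edgeR adjusted p = 0.00119) from E12.5 to E18.5 and −1.43 (SE 0.14, edgeR adjusted p = 2.08e-10) from E18.5 to adult. The first of these was not called with sequencing batch as a covariate, at −0.49 (edgeR adjusted p = 0.106), nor with counts summed per plate, at −0.49 (edgeR adjusted p = 0.0717).

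Hspa8, the constitutive HSP70 that also strips clathrin from vesicles, was 1515, 1396, 2669 and 2459.9 CPM in E12.5 brain, 663, 560.4, 675 and 617 CPM in adult brain and ran from 1248 to 1748 CPM with a median of 1456 at E18.5. The adult libraries lay below all others, while the first-batch plate of E12.5 brain lay within the range of E18.5. Adult against E18.5 brain gave a log2 change of −1.21 (SE 0.18, edgeR adjusted p = 1.52e-06). The fall from E12.5 to E18.5, −0.45 (SE 0.15, edgeR adjusted p = 0.0277), turned to 0.11 (edgeR adjusted p = 0.698) when only that plate stood for E12.5. Hspa8 is also a gene with processed copies: 81.8% of the 50-base stretches in the last 500 bases of its GENCODE M21 transcripts also occur in transcripts of 11 other genes, so counts may be shared with them.

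Hspa4, an HSP110-type partner of HSP70, was 394 ± 56.7 CPM in E12.5 brain, 323 ± 49.3 in E18.5 brain and 207 ± 50.6 in adult brain. It fell from E18.5 to adult by a log2 change of −0.60 (SE 0.21, edgeR adjusted p = 0.0359), with libraries that overlapped, and that call was lost in 10 of 19 alternatives. Against E12.5 the adult change was −0.89 (SE 0.22, edgeR adjusted p = 0.00104). Hspbp1, a factor that releases nucleotide from HSP70, was 104, 51.4 and 29.96 CPM, and fell by 1.00 on the log2 scale (SE 0.34, edgeR adjusted p = 0.0249) from E12.5 to E18.5, a call lost in 11 of 21 alternatives. Hspa14, an HSP70 of the ribosome, was 137 CPM in yolk sac and 93.3, 74.6 and 74.4 CPM in brain, and passed in no comparison.

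**Figure D3:**
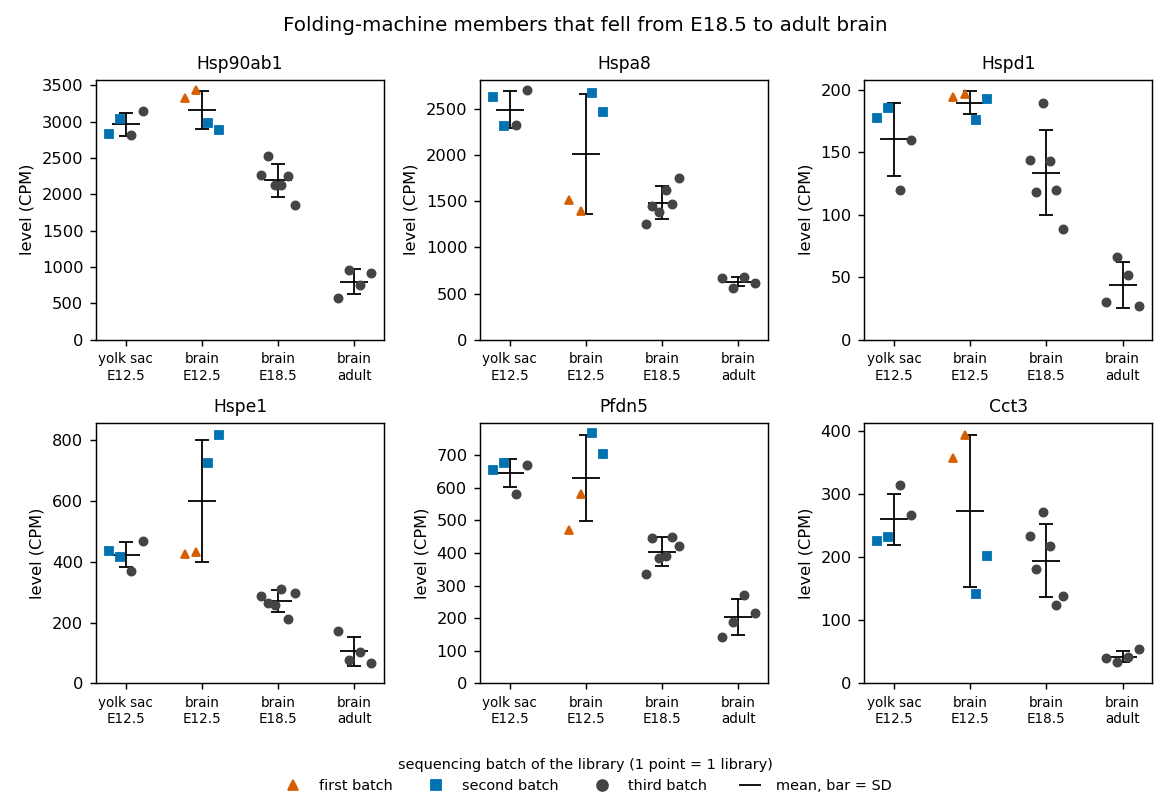
Level in CPM (vertical axes, from 0) of 6 folding-machine genes that fell from E18.5 to adult brain; points are libraries marked by sequencing batch, with mean and SD. In every panel the adult libraries lie below those of E18.5 brain. The E12.5 brain plates lie farthest apart for Hspa8, Hspe1 and Cct3, and less so for Hsp90ab1 and Pfdn5.

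Hspe1, the lid of the mitochondrial ring, fell at both steps, and Hspd1, the ring itself, fell from E18.5 to adult brain. In mouse Hspd1 and Hspe1 are read in opposite directions from 1 shared stretch on chromosome 1. Among 32851 RefSeq promoters of build GRCm38.p6, read on both strands over the 250 bases before the start, 0.466% hold the heat shock element searched for, GAA, TTC and GAA with any 2 bases between one and the next, and of the 72 member symbols with a promoter in that table Hspd1, Hspe1 and Dnajb6 have it. Members without a promoter there, among them Hsp90aa1, Hsp90ab1 and Hspa8, could not be searched. The match is shown because Hspd1 and Hspe1, whose values follow, share this stretch, and no value here tests the motif. Capitals mark the fixed letters of the motif, and the stretches are chr1:55088059-55088081 on the plus strand and chr1:55088054-55088076 on the minus strand, which overlap.
Hspe1 and Hspd1, plus strand: ttctaGAAccTTCcgGAAggccc
Hspe1 and Hspd1, minus strand: ttccgGAAggTTCtaGAAcggac
The plus-strand motif begins 84 bases before the start of Hspe1, and the annotation places the stretch in an untranslated exon of an Hspd1 transcript. A match describes letters and no binding.

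Hspe1 was 437, 417, 369 and 467 CPM in yolk sac, 427, 432, 724 and 818 CPM in E12.5 brain and 171, 76.9, 104 and 67.1 CPM in adult brain, and ran from 211 to 309.6 CPM with a median of 275 at E18.5. The 3 brain ages did not overlap, and within E12.5 brain the second-batch plate was higher than the first. The log2 fold change was −1.15 (SE 0.20, edgeR adjusted p = 2.10e-05) from E12.5 to E18.5 and −1.31 (SE 0.27, edgeR adjusted p = 4.36e-04) from E18.5 to adult. With the first-batch plate alone for E12.5, the earlier change was −0.58 (edgeR adjusted p = 0.0582). Of the transcript end of Hspe1, 53.2% occurs in 6 other genes, so its counts may also be shared.

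Hspd1 was 194, 197, 176 and 193 CPM in E12.5 brain and 30.2, 65.9, 51.95 and 26.8 CPM in adult brain, and ran from 88.5 to 189 CPM with a median of 131 at E18.5. Adult libraries lay below all E18.5 ones, with a log2 change of −1.55 (SE 0.34, edgeR adjusted p = 7.82e-04), while E18.5 against E12.5, at −0.52 (SE 0.22, edgeR adjusted p = 0.0787), did not pass. Unlike Hspe1, Hspd1 has no 50-base stretch of its transcript end in another gene. Hspa9, the mitochondrial HSP70, was at 32.3, 29.2, 51.7 and 48.1 CPM in yolk sac and the 3 brain ages and passed in no comparison, and neither did its J-domain partner Dnaja3 at 38.9, 40.5, 50.96 and 35.2 CPM. Among the J-domain proteins of the inner membrane, Dnajc15 fell from E12.5 to E18.5 brain, at −1.41 (SE 0.39, edgeR adjusted p = 0.00787) and Dnajc19, at −0.80 (SE 0.29, edgeR adjusted p = 0.0372). The Dnajc19 call was lost in 15 of 21 alternatives and the Dnajc15 call in 2.

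All 3 tested prefoldin subunits fell from E12.5 to E18.5 brain, where 13.4% of all tested rows were called lower. Pfdn1 was 333, 294, 229.7 and 163 CPM in yolk sac, 174, 221, 279 and 263 CPM in E12.5 brain and 60.3, 87.9, 10.4 and 107 CPM in adult brain, and ran from 79.7 to 115 CPM with a median of 95.3 at E18.5. All E18.5 libraries lay below all E12.5 ones, with a log2 change of −1.29 (SE 0.25, edgeR adjusted p = 1.55e-04), and the adult libraries overlapped those of E18.5. Pfdn5 was 471, 580.3, 767 and 705 CPM in E12.5 brain and 141, 187, 270.1 and 215 CPM in adult brain, and ran from 335 to 450.3 CPM with a median of 405 at E18.5. Its 3 brain ages did not overlap, with a log2 change of −0.65 (SE 0.16, edgeR adjusted p = 0.00245) to E18.5 and −0.96 (SE 0.20, edgeR adjusted p = 4.76e-04) from there to adult. Of its transcript end, 25.7% occurs in Myg1, so its counts may be shared. Pfdn5 fell by less against the first-batch plate of E12.5 alone, at −0.30 (edgeR adjusted p = 0.32), and Pfdn1 was not called with sequencing batch as a covariate, at −0.89 (edgeR adjusted p = 0.193). Pfdn2 fell, at −0.75 (SE 0.26, edgeR adjusted p = 0.0274), a call lost in 15 of 21 alternatives, and Pfdn4 had 5 UMIs in yolk sac and 1 in E18.5 brain.

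The subunits of chaperonin CCT passed at different steps. Cct3 was 226, 232, 314 and 267 CPM in yolk sac, 356, 393, 141 and 201 CPM in E12.5 brain and 40.2, 32.97, 41.6 and 53.6 CPM in adult brain, and ran from 124 to 271 CPM with a median of 199 at E18.5. Adult libraries lay below every other library, and the log2 fold change against E18.5 was −2.17 (SE 0.37, edgeR adjusted p = 2.15e-05). Cct7 fell at the earlier step instead. It was 492, 447, 591 and 683 CPM in E12.5 brain, ran from 177 to 327 CPM with a median of 256 at E18.5 and was 271, 352, 208 and 376 CPM in adult brain. The log2 fold change was −1.11 (SE 0.19, edgeR adjusted p = 2.34e-05) to E18.5, without overlap, and 0.25 (SE 0.22, edgeR adjusted p = 0.472) from E18.5 to adult. Cct4 was 121, 83.9 and 90.9 CPM over the 3 brain ages, Cct8 115, 75.1 and 67.2 CPM and Tcp1, read in 1 row with AK163149, 82.3, 69.96 and 47.5 CPM, and none of these 3 passed between brain ages. Between brain ages Cct5 and Cct6a passed only for adult against E12.5, at −1.96 (SE 0.57, edgeR adjusted p = 0.0114) and −0.84 (SE 0.29, edgeR adjusted p = 0.0206). Whether the subunits differed from one another in these changes was not tested.

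Cct2 and Hsp90aa1 had the largest fitted differences between plates of 1 group among the tested members. It was 29.6, 39.9, 262 and 178 CPM in yolk sac, 419, 416, 64.3 and 74.4 CPM in E12.5 brain and 70.4, 0, 41.6 and 0 CPM in adult brain, and ran from 27.7 to 322 CPM with a median of 166 at E18.5. Of the E12.5 libraries, the 4 of the second batch were the lowest in both tissues. Adult against E18.5 brain gave −2.53 (SE 1.19, edgeR adjusted p = 0.156) in the fit of all libraries and −2.52 (edgeR adjusted p = 0.0406) with batch as a covariate.

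Cell-cycle transcripts moved with these changes. The share of cells with at least 2 UMIs of 40 cycling genes, after thinning to 300 UMIs, was 20.6% to 27.5% per library for yolk sac, 19.2% to 32.2% for brain at E12.5, 13.4% to 21.5% for brain at E18.5 and 2.04% to 9.82% for adult brain. Without those cells, 7 members were called lower and 2 higher in E18.5 against E12.5 brain, and 8 lower and 1 higher in adult against E18.5 brain. The cells left can still cycle, since 1 cycling UMI was seen in 167 yolk sac cells, 185 and 211 brain cells at E12.5 and E18.5 and 119 adult cells. Within yolk sac libraries, cycling cells held more chaperonin CCT than the other cells, at 1986 ± 255 against 1182 ± 190 CPM and in 4 of 4 libraries. This was not particular to CCT. The cytosolic, mitochondrial, endoplasmic reticulum and stress-inducible sums were also higher in cycling cells of 4 of 4 yolk sac libraries. The remaining J-domain sum was higher in 3 of 4, the prefoldin sum in 2 and the small heat shock sum in 0. The single rows with the largest ratios there were Cct8 and Hspd1. Hspd1 was 301 ± 128 against 112 ± 10.7 CPM and Cct8 110 ± 49.4 against 27.9 ± 12.3 CPM, each higher in cycling cells of 4 of 4 yolk sac libraries. In brain Cct8 was 113 ± 20.8 against 115 ± 7.11 CPM at E12.5, higher in 2 of 4 libraries, and 105 ± 31.8 against 67.1 ± 34.9 CPM at E18.5, higher in 5 of 6. Hspd1 was higher in cycling cells of 3 of 4 libraries at E12.5, with means of 220.2 against 179 CPM, and 5 of 6 at E18.5, with 170.2 against 124 CPM. In E12.5 brain the CCT sum was 2074 ± 357 in cycling cells against 1854 ± 548 CPM in the others, higher in 3 of 4 libraries. At E18.5 the CCT sum was 1505 ± 254 against 1212 ± 292 CPM, higher in 5 of 6. Hsp90ab1 was 3946 ± 563 against 2628 ± 150 CPM in yolk sac, higher in cycling cells of 4 of 4 libraries. In E12.5 brain Hsp90ab1 was 3389 ± 366 against 3078 ± 272 CPM, higher in 3 of 4. At E18.5 it was 2211 ± 371 against 2189 ± 226 CPM, higher in 3 of 6. Pfdn5 went the other way in yolk sac, at 549 ± 73.8 CPM in cycling and 678 ± 58.3 CPM in other cells, higher in cycling cells of 0 of 4 libraries, while in E12.5 brain it was 633 ± 101 against 630.4 ± 145 CPM, higher in 2 of 4. These are descriptions without a test, since the cells share their libraries.

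Hspa5 and Dnajb9, 2 of the 10 tested members of the endoplasmic reticulum, rose from E12.5 to E18.5 brain, where 11.1% of all tested rows were called higher. The endoplasmic reticulum stress element, CCAAT and CCACG with any 9 bases between them, was searched for on both strands of the 250 bases before the start. It is in 0.113% of the 32851 RefSeq promoters. Of the 72 member symbols with a promoter among these, Hspa5, Hsp90b1 and Dnajc3 hold it. Their stretches are shown because the values below include all 3 genes, of which Hspa5 passed. Capitals mark the fixed letters. They lie at chr2:34772020-34772048, plus strand, for Hspa5, at chr10:86705528-86705556, plus strand, and chr10:86705633-86705661, minus strand, for Hsp90b1, and at chr14:118937822-118937850, plus strand, for Dnajc3 (RefSeq, GRCm38.p6).
Hspa5: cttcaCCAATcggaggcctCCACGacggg
Hsp90b1, plus strand: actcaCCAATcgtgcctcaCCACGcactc
Hsp90b1, minus strand: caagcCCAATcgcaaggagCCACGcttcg
Dnajc3: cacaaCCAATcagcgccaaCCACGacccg
The edge of the motif farthest from the start lies 65 bases before it for Hspa5, 105 for Dnajc3, and 107 and 212 for Hsp90b1. The annotation places the Hspa5 stretch in an untranslated exon of an Hspa5 transcript, and those of Hsp90b1 and Dnajc3 in no exon. No binding was measured.

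Hspa5, BiP, was 270.1, 232, 395 and 345 CPM in yolk sac, 441, 397, 261 and 197 CPM in E12.5 brain and 784, 648, 509 and 630.3 CPM in adult brain, and ran from 464 to 921 CPM with a median of 547 at E18.5. Every E18.5 and adult library lay above every E12.5 brain library. The log2 fold change was 0.85 (SE 0.20, edgeR adjusted p = 0.00194) from E12.5 to E18.5 and 0.14 (SE 0.21, edgeR adjusted p = 0.684) from E18.5 to adult. The rise was lost with sequencing batch as a covariate, at 0.77 (edgeR adjusted p = 0.165), and against the first-batch plate of E12.5 alone, at 0.58 (edgeR adjusted p = 0.0668). Dnajb9, a J-domain partner of BiP and target of the unfolded protein response, was 24.3, 11.2, 21.4 and 35.02 CPM in E12.5 brain, ran from 10.6 to 74.5 CPM with a median of 55.5 at E18.5 and was 131, 198, 62.3 and 134 CPM in adult brain. Neighbouring ages overlapped, and adult and E12.5 libraries did not. It rose by 1.25 (SE 0.44, edgeR adjusted p = 0.0334) and then by 1.34 (SE 0.41, edgeR adjusted p = 0.0161). With batch as a covariate the first of these was −0.04 (edgeR adjusted p = 0.988), and without adult replicate 2 the second was 1.04 (edgeR adjusted p = 0.126).

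Hsp90b1, GRP94, was 444, 519, 1077 and 1072 CPM in yolk sac and 1236, 1323, 377 and 359 CPM in E12.5 brain, again lowest in the second-batch libraries of each tissue. It ran from 1001 to 1786 CPM with a median of 1484 at E18.5 and was 643, 692, 769 and 738 CPM in adult brain, where every library lay below every E18.5 library. Adult against E18.5 brain was −0.96 (SE 0.40, edgeR adjusted p = 0.103) in the fit of all libraries and −0.96 (edgeR adjusted p = 2.97e-06) in a fit of those groups alone. From E18.5 to adult Hsp90b1 was thus at −0.96 and Hspa5 at 0.14, a difference between genes that was not tested.

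Dnajc25 was 30.3, 31.8, 17.1 and 13.1 CPM in E12.5 brain, ran from 11.5 to 48.7 CPM with a median of 22.6 at E18.5 and was 80.4, 76.9, 51.95 and 53.6 CPM in adult brain, above all brain libraries of the other ages. The rise from E18.5 to adult was 1.43 (SE 0.49, edgeR adjusted p = 0.0314), from 26 and 24 UMIs, and it was lost in 8 of 14 alternatives. Dnajc3, a J-domain inhibitor of the kinase PERK and partner of BiP, gave 109, 178 and 106 CPM over the brain ages. Dnajc1 gave 58.6, 108 and 97.6 CPM, and Dnajc10, a reductase, 69.2, 76.7 and 32.04 CPM. Dnajb11, a secretory J-domain protein, gave 161, 175 and 158 CPM, and the membrane proteins Dnajb12 and Dnajb14 gave 27.2, 38.03 and 48.1 and 104, 78.5 and 61.9 CPM. None of these 6 passed in any comparison.

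**Figure D4:**
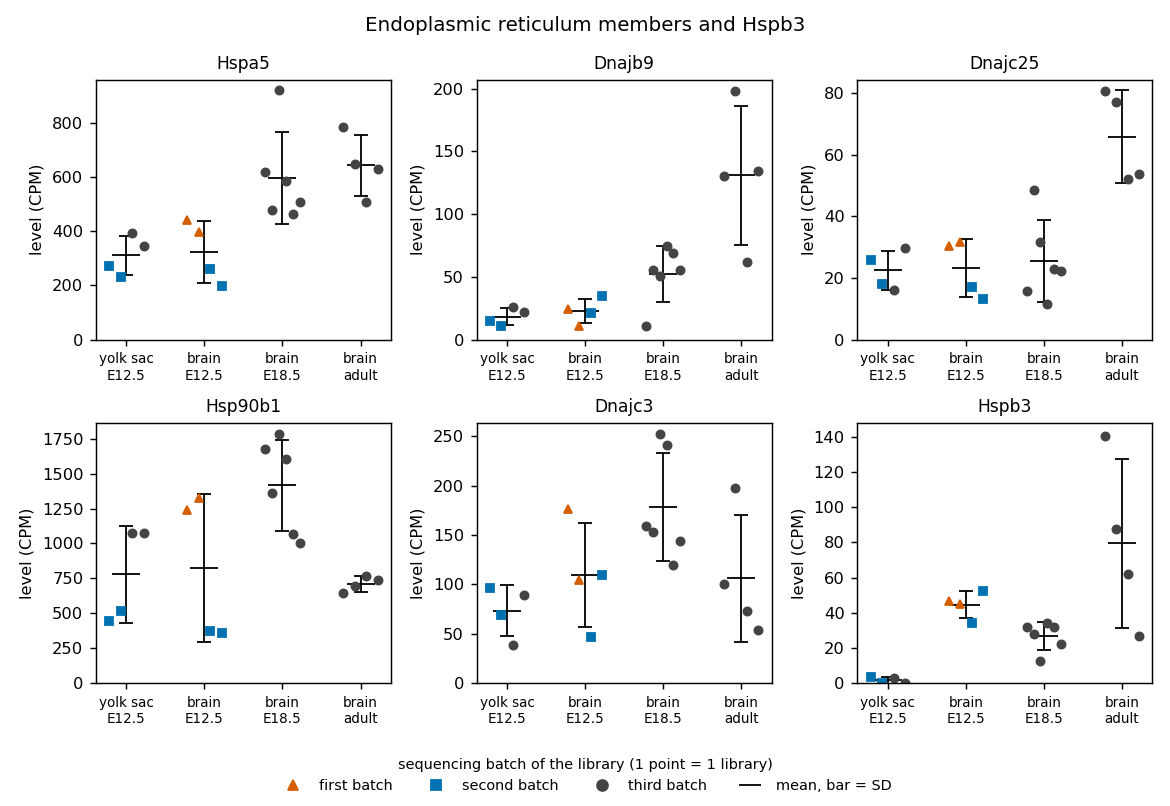
Level in CPM (vertical axes, from 0) of 5 endoplasmic reticulum genes and the small heat shock gene Hspb3; points are libraries marked by sequencing batch, with mean and SD. Hspa5 and Dnajb9 are higher in adult than in E12.5 brain, Hsp90b1 has its highest mean at E18.5, and Hspb3 is near 0 in yolk sac.

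Other genes of the endoplasmic reticulum were taken from a list of folding enzymes and stress regulators. Of 16 tested ones 8 rose from E12.5 to E18.5 brain, where 11.1% of all tested rows were called higher, with a median log2 fold change of 0.51. DESeq2 called 7 higher. The other alternative fits are not given for this list, and no batch holds brain of both ages. Pdia3, a disulfide isomerase, went from 331 ± 99.1 to 580.3 ± 75.7 CPM, with a log2 change of 0.79 (SE 0.17, edgeR adjusted p = 4.09e-04), and the transcription factor Atf4 from 243 ± 23.4 to 455 ± 81.3 CPM, at 0.90 (SE 0.19, edgeR adjusted p = 4.71e-04). Xbp1, a transcription factor of the unfolded protein response, rose by 0.68 (SE 0.20, edgeR adjusted p = 0.0116). Calr, the lectin calreticulin, did not pass, at 0.04 (SE 0.12, edgeR adjusted p = 0.863). From E18.5 to adult 2 of the 16 rose, near the 10.3% called higher of all rows: Pdia3 by 0.49 (SE 0.17, edgeR adjusted p = 0.0331) and Herpud1, a membrane protein of the degradation pathway, by 1.37 (SE 0.22, edgeR adjusted p = 6.03e-06).

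Partners of the cytosolic machines were examined in the same way. Of 18 tested heat shock factors and co-chaperones, 3 fell from E12.5 to E18.5 brain, 2 from E18.5 to adult and 6 from E12.5 to adult, where 13.4%, 11.2% and 20.7% of all tested rows were called lower. The first pair of counts is near those shares. In these 3 comparisons 0 rose by edgeR, where 11.1%, 10.3% and 17.8% of all tested rows were called higher. At an unadjusted p under 0.05 edgeR also had 0 higher, and DESeq2 called 0. Whether 0 of 18 departs from the shares of all rows was not tested. Cdc37, the adaptor that brings kinases to HSP90, fell, at −0.59 (SE 0.19, edgeR adjusted p = 0.0179) from E12.5 to E18.5, and Nudc, an HSP90 co-chaperone, at −0.82 (SE 0.22, edgeR adjusted p = 0.00386). Stip1, which links HSP70 to HSP90, fell, at −1.03 (SE 0.35, edgeR adjusted p = 0.0165) from E12.5 to adult. Hsf1, the heat shock factor itself, was 67.9, 67.8, 50.1 and 41.1 CPM in yolk sac and the 3 brain ages and passed in no comparison. Among 4 tested partners of CCT and prefoldin, Pdcl3 fell from 327 ± 17.2 to 173 ± 47.2 CPM between E12.5 and E18.5 brain, at −0.93 (SE 0.20, edgeR adjusted p = 6.13e-04). Of 5 tested genes of mitochondrial protein quality control only the protease Lonp1 passed between brain ages, falling from E12.5 to adult at −0.99 (SE 0.39, edgeR adjusted p = 0.0413). DESeq2 called 0 of these 5 lower in adult than in E12.5 brain. Alternatives other than DESeq2 are not given for the genes of these lists.

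The comparison of adult with E12.5 brain spans both steps and shares its libraries with them. In it 15 members fell and 4 rose, where 20.7% of all tested rows were called lower and 17.8% higher, and the members' median was −0.63 against −0.07. Hsp90ab1 changed by −1.96 (SE 0.15, edgeR adjusted p = 4.25e-14), Hspe1 by −2.46 (SE 0.27, edgeR adjusted p = 1.16e-09), Hspd1 by −2.06 (SE 0.34, edgeR adjusted p = 3.43e-06) and Cct3 by −2.69 (SE 0.37, edgeR adjusted p = 1.09e-07). Hspa5 changed by 1.00 (SE 0.23, edgeR adjusted p = 6.85e-04) and Dnajb9 by 2.59 (SE 0.47, edgeR adjusted p = 2.33e-05). The calls for Cct3, Hsp90ab1, Hspa4, Hspa5, Hspa8, Hspd1, Hspe1, Pfdn1 and Pfdn5 held in every alternative run. Granulocyte granule genes were also higher in adult brain, with a sum of 6 markers from 2495 to 9439 CPM per library against 229.7 to 1267 at E18.5 and 78.9 to 158 at E12.5. Of these 6, S100a8 and S100a9 had 0 UMIs in adult brain, and the other 4 were called higher than in E12.5 brain. Of 3 monocyte markers only Ly6c2 was seen in adult brain, with a sum of 0, 43.95, 1870.3 and 53.6 CPM, almost all in replicate 3, against 4.05 to 12.9 CPM in E12.5 brain. Of 4 astrocyte markers Slc1a3 alone was seen in adult brain, at 111 to 187 CPM, and at E18.5, at 5.31 to 22.97 CPM, and Slc1a3 had 0 UMIs at E12.5. The endothelial sum of 4 markers was 0 to 31.2 CPM in adult brain, 63.1 to 159 at E18.5 and 21.9 to 117 at E12.5, and Pecam1 was called lower. The part of these markers in the results was not tested. The 9 calls named above also held without adult replicate 3.

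Of the 11 tested remaining J-domain rows, 5 passed in at least 1 comparison, or 45.5%, against 52.7% of all 4883 tested rows. Dnajc24, a factor of diphthamide synthesis, was 70.4, 54.9, 62.3 and 67.1 CPM in adult brain and ran from 10.6 to 36.8 CPM with a median of 19.9 at E18.5, without overlap and with a log2 change of 1.58 (SE 0.50, edgeR adjusted p = 0.0197). Dnajc13, an endosomal protein, fell at the same step, at −1.92 (SE 0.57, edgeR adjusted p = 0.0151) and Dnajc5, a protein of synaptic and secretory vesicles, at −0.92 (SE 0.34, edgeR adjusted p = 0.0493), the last of these lost in 12 of 19 alternatives. Dnajc24 was lost without adult replicate 4, at 1.53 (edgeR adjusted p = 0.0507), or replicate 1, and Dnajc13 without adult replicate 3, at −1.65 (edgeR adjusted p = 0.0663), or replicate 2. From E12.5 to adult Dnajc7, a partner of both HSP70 and HSP90, rose by 0.85 (SE 0.27, edgeR adjusted p = 0.0119) and Dnajc8, a splicing-associated protein, fell, at −0.71 (SE 0.26, edgeR adjusted p = 0.0271). Dnajc7 was lost without E12.5 brain replicate 2, at 0.67 (edgeR adjusted p = 0.0664), or adult replicate 4, and Dnajc8 without E12.5 brain replicate 1 or adult replicates 1 or 2, at −0.52 (edgeR adjusted p = 0.14) for the last. The other 6 tested ones passed in no comparison.

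Between the E12.5 tissues few chaperones passed the test. Of the 48 tested members, 3 were lower and 0 higher in yolk sac, where 8.81% of all tested rows were called lower and 7.04% higher, and the members' median log2 fold change was −0.15 against −0.05. By edgeR 1 member was higher at an unadjusted p under 0.05, and DESeq2 called 0 higher. Hspb3, a small heat shock protein best known from muscle, was 3.70, 0, 3.24 and 0 CPM in yolk sac and 46.5, 44.9, 34.3 and 52.5 CPM in E12.5 brain. This stood for 2 UMIs against 67, a ratio by summed counts of 25.3 with a 95% exact interval from 6.73 to 213 that covers counting error only, and the log2 fold change was −4.24 (SE 0.69, edgeR adjusted p = 7.86e-06). No yolk sac library reached any brain library. In brain Hspb3 ran from 12.6 to 34.4 CPM with a median of 29.8 at E18.5 and was 141, 87.9, 62.3 and 26.8 CPM in adult libraries, where it was higher by 1.60 (SE 0.47, edgeR adjusted p = 0.0114), a call lost without adult replicate 1 at 1.15 (edgeR adjusted p = 0.163).

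All 8 tested CCT subunits had lower fitted values in yolk sac than in E12.5 brain, as had 36 of the 48 tested members and 2614 of all 4883 tested rows. Cct8 and Cct6a passed, while Cct3 and Cct5 were near 0, at −0.05 and −0.07. Cct8 was 74.01, 50.8, 29.1 and 40.8 CPM in yolk sac and 123, 103, 116 and 118 CPM in E12.5 brain, without overlap, at −1.20 (SE 0.34, edgeR adjusted p = 0.00936). Cct6a was 107, 123, 184 and 200.2 and 326, 382, 129 and 219 CPM, with overlap, at −0.75 (SE 0.25, edgeR adjusted p = 0.0341). Within the second batch, which holds 2 libraries of each tissue, Cct8 was at −0.87 (edgeR adjusted p = 0.312) and Cct6a at −0.56 (edgeR adjusted p = 0.427), and neither passed. Cct8 was also lost without yolk sac replicate 3, at −0.99 (edgeR adjusted p = 0.0533), and Cct6a without any 1 of replicates 1 and 2 of either tissue, most of all without E12.5 brain replicate 2, at −0.54 (edgeR adjusted p = 0.21). In that batch Hspe1, at −0.83 (edgeR adjusted p = 0.0161), and Dnajc7, at −1.07 (edgeR adjusted p = 0.0446), passed, as they did not over all libraries. Hsp90ab1 was −0.05 (SE 0.14, edgeR adjusted p = 0.867) and Hspa8 0.34 (SE 0.17, edgeR adjusted p = 0.206) in yolk sac against E12.5 brain. Hemoglobin and erythroid genes summed to 104 to 3034 CPM per yolk sac library and 13.1 to 129 CPM per E12.5 brain library, and the granulocyte sum was 429 to 1542 against 78.9 to 158 CPM, without overlap and with Elane called higher. All 4 tested of 6 yolk sac and border macrophage markers were also called higher in yolk sac. The part of these lists in the values was not tested.

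The plates of E12.5 also differed from each other for some chaperones. In E12.5 brain the second-batch plate was higher than the first for 2 members and lower for 5, where 2.13% and 3.81% of all tested rows were called. Hspa8 was higher by 0.92 (SE 0.15, edgeR adjusted p = 1.80e-05) and Hspe1 by 0.95 (SE 0.21, edgeR adjusted p = 0.00235). The lower ones were Hsp90aa1 at −2.34 (SE 0.47, edgeR adjusted p = 8.52e-04), Hsp90b1 at −1.69 (SE 0.20, edgeR adjusted p = 2.20e-08), Cct3, Cct6a and Hspa5. In yolk sac the second-batch plate against the third-batch plate was lower for 2 members, where 2.64% of rows were called lower. These were Hsp90aa1 at −2.71 (SE 0.52, edgeR adjusted p = 7.56e-04) and Hsp90b1 at −1.14 (SE 0.20, edgeR adjusted p = 1.24e-04), which were thus low in the second batch of both tissues, as were 55 of all 4883 tested rows. Cct2 was at −2.47 (SE 0.74, edgeR adjusted p = 0.0707) and −2.63 (SE 0.85, edgeR adjusted p = 0.127) in the 2 contrasts and did not pass. Each of these groups has 1 plate per batch, so plate and batch cannot be told apart, and no batch holds brain of both E12.5 and E18.5. Adult and E18.5 brain lie wholly in the third batch.

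**Figure D5:**
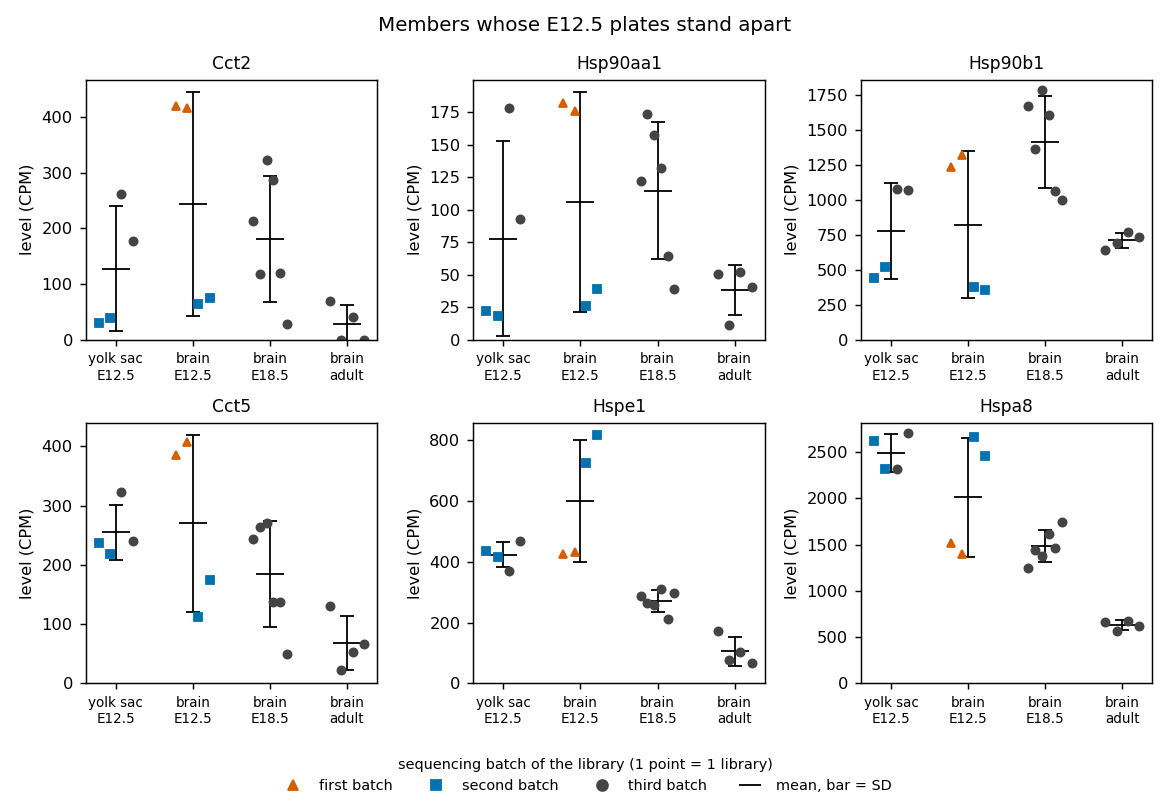
Level in CPM (vertical axes, from 0) of 6 members whose E12.5 plates stand apart; points are libraries marked by sequencing batch, with mean and SD. The second-batch libraries are low for Cct2, Hsp90aa1 and Hsp90b1 in yolk sac and brain, and for Hspe1 and Hspa8 high in E12.5 brain.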

How the data were processed

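Single-cell MARS-seq libraries of sorted myeloid cells were used, 4 each of yolk sac, E12.5 brain and adult brain and 6 of E18.5 brain. UMI counts, whole and without normalization, were deposited as 1 matrix of gene rows by wells, beside an annotation of the wells. Per the submitters' processing notes, bcl2fastq 2.15.0.4 and build mm9 were used. Which aligner, UMI collapsing and gene models the authors applied is not given in the sources used here. No value exceeds 256, a possible limit of the molecular tags, and chaperone rows reach at most 61. Groups come from the labels' source names. Replicate numbers were given in accession order.

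Wells with 1 sorted cell and at least 300 UMIs were kept, 3012 of 3420, and 408 were left out. Doublets were not called, as wells were sorted with 1 cell. Counts were summed per library. Library pairs within groups were set against each other with chi-square tests, and none agreed within sampling noise (chi-square per degree of freedom 1.44 to 2.08 within a plate and 1.73 to 4.60 between plates), so none was taken as a copy of another. This does not show that the libraries of a plate are independent, and sums per plate are among the alternatives. One edgeR 4.0.16 fit of all 18 libraries (limma 3.58.1, R 4.3.3; TMM, filterByExpr, robust quasi-likelihood F-test) gave log2 fold changes with standard errors and p-values adjusted over 4883 rows. The test was checked on simulated data, in which each library was drawn independently, without plate or batch effects. For E18.5 against E12.5 brain it recovered 74% of 100 rows changed 2-fold and called 0.135% of unchanged rows. The changed rows were drawn only from those with higher total counts, and 1 spread was set for every row. The recovery therefore does not cover low members. Such data cannot show the error rate for libraries that share plates and batches. Alternatives were RLE factors, no filter, sequencing batch as a covariate, counts summed per plate, libraries thinned to 74562 UMIs, cells with at least 500 UMIs, no cycling cells, the 2 compared groups alone, each library left out and DESeq2 1.42.0. Fits within the shared sequencing batch and with 1 plate of E12.5 brain were chosen after seeing the data. A sign flip between 2 values that both missed the threshold was not counted as a reversal.

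For shares of cells, exact two-sided permutations of libraries were used. RefSeq promoters (GRCm38.p6) served for sequences and GENCODE M21 transcripts for shared 3' ends of 51 symbols, and no coordinate was converted from mm9. The families and gene lists, like the choice of members, were made with earlier results of these data known. Rows were named when they passed the filter and belonged to a family other than the remaining J-domain proteins; of those, called ones were named, up to 3 per direction and comparison. The 3 rows that joined by name only, and low rows named for their counts, were chosen after their values were seen.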

Additional observations from a re-analysis of the deposited data

Results flagged for a closer look

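Hspa5 in replicate 3 of E18.5 brain was at 921 CPM, while the other 5 libraries of the group lay between 464 and 616 CPM, a gap to the nearest library that passes Dixon's 95% limit. It was the only one of 168 sets of libraries (1 row in 1 group) in which a library stood apart in this way, and chance alone flags about 1 in 20 such groups. Empty wells held some signal: 11 of the 1008 UMIs in the 36 wells that received no cell were of chaperone rows, in 8 wells, and these wells had no part in the comparisons.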

How the results depend on the processing

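The fall of Cct3, Hsp90ab1, Hspa8, Hspd1, Hspe1 and Pfdn5 from E18.5 to adult brain held in every alternative in which each could be fitted, as did Hspb3 in yolk sac, whereas 0 of the 12 calls for E18.5 against E12.5 brain held in all of them and 7 held in each fit that left out 1 library. Against 3 lower members in yolk sac, 1 was called with counts summed per plate, 1 with thinned libraries and 1 with the groups alone. For E18.5 against E12.5 brain, the 2 higher members became 0 with batch as a covariate, 1 without a filter, 1 per plate, 1 with DESeq2 and 5 with the second-batch plate of E12.5 alone, and the 10 lower ones 3 with batch as a covariate, 4 per plate, 4 with the first-batch plate alone and 6 with DESeq2. For adult against E18.5 brain the 4 higher members became 0 without a filter, 0 with thinned libraries, 0 in cells with at least 500 UMIs, 1 per plate, 1 without cycling cells and 1 with the groups alone. For adult against E12.5 brain the 4 higher ones became 1 with batch as a covariate, 2 with thinned libraries and 2 in cells with at least 500 UMIs. At an unadjusted p under 0.05 edgeR had 6 members higher in E18.5 than in E12.5 brain, and 5 higher in adult than in E18.5 brain. Leaving out 1 library gave 0 to 1 higher and 2 to 3 lower members for yolk sac, 1 to 4 and 6 to 10 for E18.5 against E12.5 brain, 1 to 4 and 6 to 9 for adult against E18.5 brain, and 3 to 5 and 12 to 16 for adult against E12.5 brain. Dnajb9 in E18.5 against E12.5 brain reversed to −0.044 with batch as a covariate, and Hspa8 to 0.11 against the first-batch plate. The cause was not tested in any case. No paired analysis was possible, because the labels carry no replicate numbers and all libraries of 1 age share 1 subject number. Age and subject number therefore cannot be told apart. Depth limits low members most in adult libraries, where Hspa1a and Hspa1b had 0 UMIs against a floor of 8.30 CPM.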

Other observations

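Several members with a known home in other tissues were at or near 0 in these cells. Cct8l1, Dnajb8, Dnajc22, Dnajc5b, Dnajc5g and Hspb7 had 0 UMIs in all 18 libraries. Dnajb7, Dnajb13 and Dnajb3, which are J-domain proteins, had 1, 0 and 0 UMIs in adult brain and 0, 5 and 0 in yolk sac. Among the low rows that could not be tested, Dnajb5 was at 3.51 ± 2.44 CPM in E12.5 brain and 36.4 ± 18.7 CPM in adult brain, from 6 and 13 UMIs, and Hspb6 was at 6.97 ± 4.85 and 23.7 ± 18.5 CPM, from 12 and 9 UMIs (SD, n = 4 each). Dnajb6, whose promoter holds the heat shock element searched for, was at 15.97 ± 6.16 CPM in yolk sac, 27.1 ± 12.01 in E12.5 brain, 35.8 ± 18.3 in E18.5 brain and 39.4 ± 15.4 in adult brain. These low rows were chosen after their values were seen and carry no test.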
